A study of Sus scrofa with 20 samples.

Results

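Neural and neuroendocrine genes were followed across porcine biliary tree stem cells (pBTSCs) and 5 sorts of pig liver cells. The set held 9 genes, SCG2, NCAM1, CHGA, CHGB, SCG3, SCG5, SNAP25, ELAVL4 and UCHL1, out of 25764 genes in the deposited table, and all 9 had a row. They were chosen by name, with the rise of SCG2 and NCAM1 in pBTSCs already known, so every difference of these genes between pBTSCs and liver is given below as a description and without a test.

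RNA was sequenced from poly(A) libraries of 20 pig cell preparations. The pBTSC group (5 libraries) was labelled as gallbladder tissue. Per the study, these cells came from the biliary trees of newborn piglets and were CD45-negative, EpCAM-positive cells grown as organoids with early mesenchymal cells, 3 of them (libraries 2, 7 and 11) from a line of pigs that carries an H2B-GFP transgene and 2 (libraries 15 and 20) from wild-type piglets. The liver groups were labelled CD45-/EpCAM+ (4 libraries), CD45-/EpCAM- (2), CD45+ (5), CD31+ (2) and CD146+ (2), with no genotype, age or treatment in the labels. CD45 marks blood cells, EpCAM epithelial cells, CD31 endothelial cells and CD146 endothelial and perivascular cells. Libraries are named here by the number in their titles.

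The values were normalized counts, that is, read counts scaled to make libraries comparable. Estimated depth was 21200000 to 77800000 reads in 17 libraries, called deep here, and 455000 to 1570000 reads in pBTSC library 15, CD45-/EpCAM+ library 13 and CD146+ library 22, called shallow. A level of 3 reads or fewer was treated as below the floor, which lay between 0.680 and 4.28 normalized counts in the deep libraries, and at 37.7, 77.1 and 156 in libraries 15, 13 and 22. The sort antigens followed the labels only in part. PTPRC, which encodes CD45, was 424 to 2687 normalized counts in CD45+ libraries and 450 to 3027 in CD45-/EpCAM+ libraries, so these overlapped. EPCAM was 491 to 1090 in CD45-/EpCAM- libraries, below all CD45-/EpCAM+ libraries (1205 to 1779), but it was 1175 to 2232 in CD45+ libraries. In pBTSCs EPCAM was 884 to 2075, within the range of liver. The summed level of 4 hepatocyte markers was between 751123 and 2278540 in every liver library and between 2310 and 38649 in pBTSCs, so hepatocyte RNA was present in all 5 liver sorts. As the RNA came from bulk preparations, fewer cells of a type and less RNA per cell cannot be told apart.

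Neuroendocrine cells and neurons store peptides and amines in dense-core granules and release them when calcium enters. Chromogranins and secretogranins (CHGA, CHGB, SCG2, SCG3, SCG5) are the acidic proteins that load these granules or escort the hormone precursors inside them, and SNAP25 is a SNARE protein of the plasma membrane that fuses granules and synaptic vesicles with it. ELAVL4 (HuD) binds and stabilises neuronal messenger RNAs, UCHL1 (PGP9.5) is a ubiquitin hydrolase abundant in neurons and used to stain nerves, and NCAM1 (CD56) is a cell adhesion molecule of neurons and glia that natural killer cells and hepatic stellate cells also carry. Per the study, NCAM is also a trait of stem/progenitor cells and was expressed by pBTSCs kept as organoids. In the extrahepatic biliary tree, nerve fibres and ganglia with their glia lie in the wall, and scattered neuroendocrine cells have been described in the epithelium.

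Every one of the 5 pBTSC libraries lay above every one of the 15 liver libraries for all 9 genes. The same held for 11.9% of the 15576 genes tested. Since the genes were selected on this contrast, the count describes the selection.

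**Figure D1:**
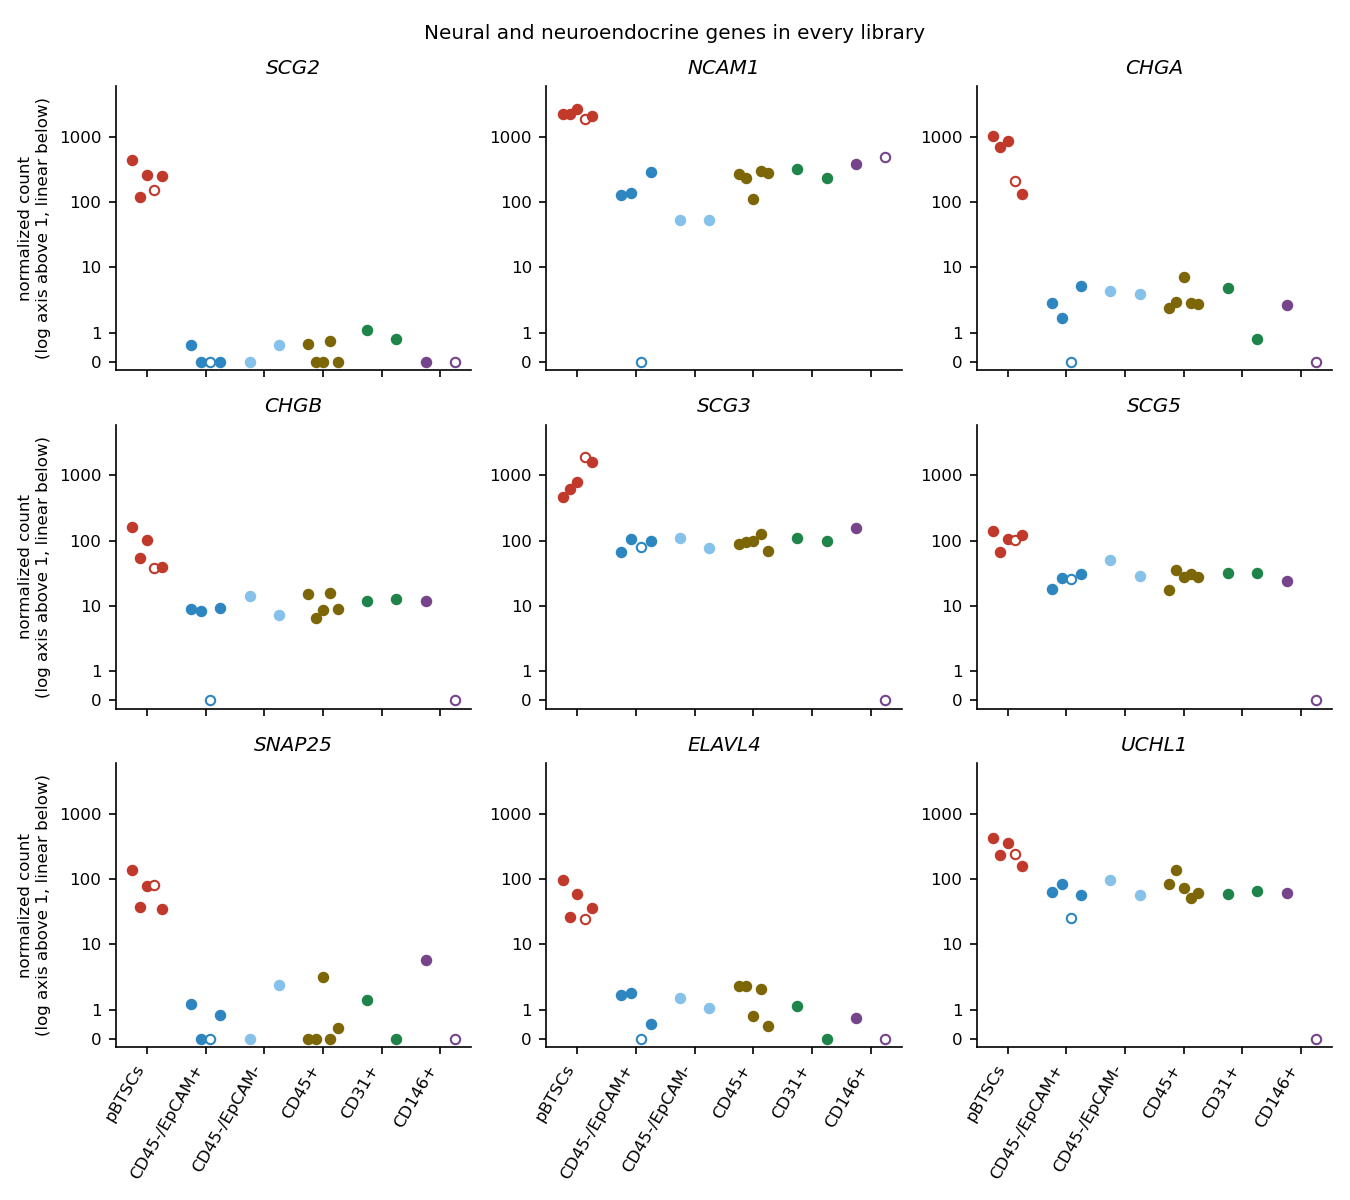
Normalized count of each gene (vertical axis, logarithmic above 1 and linear below) in every library of the 6 groups (horizontal axis), with 1 point per library in order of library number and open points for the 3 shallow libraries. The 5 pBTSC points lie above all 15 liver points in each of the 9 panels.

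SCG2 encodes secretogranin II, the precursor of the neuropeptide secretoneurin. It stood at 447, 117, 261, 152 and 248 normalized counts in pBTSC libraries 2, 7, 11, 15 and 20, a mean of 245 ± 128 (SD, n = 5). In liver no library exceeded its floor and the highest value was 1.08, so the groups were far apart. The 13 deep liver libraries together held 7 reads of SCG2, a pooled level of 0.335 (95% exact Poisson interval 0.135 to 0.691, counting error only). The median of the pBTSC libraries, 248, was 739 times that level (359 to 1839 with the interval).

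CHGA, chromogranin A, is a widely used blood and tissue marker of neuroendocrine cells. Its levels in pBTSC libraries 2, 7, 11, 15 and 20 were 1025, 702, 856, 214 and 134 (586 ± 395, SD, n = 5). Libraries 15 and 20 lay well under the other three. In liver 11 of 15 libraries were above the floor, CD45-/EpCAM- library 5 only just at 3.01 estimated reads, but none passed 7.22. The 13 deep libraries pooled to 3.40 (2.66 to 4.29), and the pBTSC median was 206 times that level (164 to 264).

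CHGB, chromogranin B, was at 162, 54.8, 101, 37.7 and 38.8 in the same order (78.8 ± 53.1, SD, n = 5), and library 15 held only 3 reads of it. All 13 deep liver libraries were above the floor, with a median of 9.41 and a highest value in liver of 15.8. The medians differed 5.82-fold.

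SCG3, secretogranin III, which binds chromogranin A and tethers it to granule membranes, had the opposite order within pBTSCs. It was 474, 625 and 802 in libraries 2, 7 and 11 and 1895 and 1607 in libraries 15 and 20 (1081 ± 631, SD, n = 5). The liver was not empty of it, with a median of 97.9 in the deep libraries and a highest value of 158, which made the medians differ 8.20-fold.

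SCG5, also named 7B2, is the chaperone that prohormone convertase 2 needs to mature. The pBTSC libraries held 139.5, 68.0, 104, 103 and 122 (107 ± 26.6, SD, n = 5), and the deep liver libraries had a median of 28.4. The distance between the groups was small, since the lowest pBTSC library was only 1.33 times the highest liver library (51.3, CD45-/EpCAM- library 5). The medians differed 3.68-fold.

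SNAP25 stood at 136, 37.8, 77.5, 82.7 and 35.0 in pBTSC libraries 2, 7, 11, 15 and 20 (73.7 ± 41.1, SD, n = 5). In liver 3 of 15 libraries passed the floor, the highest at 5.85 in CD146+ library 17. The 25 reads in the deep liver libraries pooled to 1.20, a ratio of 64.7 to the pBTSC median (43.8 to 99.99).

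ELAVL4 was at 95.8, 26.0, 59.1, 24.2 and 35.5 (48.1 ± 30.1, SD, n = 5), but the value of library 15 rested on about 2 reads and was under that library's floor. It passed the floor in 4 of 15 liver libraries, but only just, at 3.04 to 3.84 estimated reads. ELAVL4 reached 2.33 at most in liver, and the median ratio to the pooled deep liver was 29.7 (20.1 to 45.8). UCHL1, in contrast, was above the floor in all 13 deep liver libraries. Its pBTSC levels were 421, 234, 364, 239 and 161 (284 ± 106, SD, n = 5), and the deep liver libraries had a median of 63.3 with a highest value of 139. The lowest pBTSC library was 1.16 times that value, the smallest margin among the 9 genes, and the medians differed 3.77-fold.

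NCAM1 was the steadiest of the 9 in pBTSCs, at 2219, 2204, 2711, 1903 and 2100 (2227 ± 298, SD, n = 5). The deep liver libraries had a median of 234, and the lowest pBTSC library was 3.94 times the highest liver library (483, the shallow CD146+ library 22). The medians differed 9.43-fold. Genes of other NCAM1-carrying cells were read beside it. The summed level of 8 Schwann cell and enteric glia markers was 5201 to 20032 in pBTSCs and 2491 to 5511 in liver, and the defining marker SOX10 was 672 to 2503 against 0 to 157. The sum of 8 markers of stellate cells, pericytes and smooth muscle was 228946 to 673449 against 25675 to 106678, but its member LRAT, the retinol-esterifying enzyme of hepatic stellate cells, went the other way, at 2.14 to 13.2 in pBTSCs and 176 to 1323 in liver, and was called lower in pBTSCs against each of the 5 liver sorts by limma (log2 differences -5.76 to -7.20). A gene was counted as called where its adjusted p was under 0.05 and its log2 difference over 1 in size. The sum of 8 natural killer and T cell markers overlapped between pBTSCs (234 to 1017) and liver (158 to 1111). The part of these cells in the level of NCAM1 was not tested.

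Within pBTSCs the 9 genes did not move as 1 block. Library 2 held the highest pBTSC value for 7 of the 9 genes, all but NCAM1 (library 11) and SCG3 (library 15), where library 2 was the lowest for SCG3. Of all genes tested 15.7% were highest in library 2. Among 67 other neural and neuroendocrine genes tested, described below, 41 were highest in library 2 and 28 were lowest in the shallow library 15. In library 15 a single read is worth 12.6 normalized counts. The share of all genes lowest in library 15 was not counted, so the 28 have no background to be read against. CHGA, CHGB and NCAM1 were higher in all of libraries 2, 7 and 11 than in both 15 and 20, and SCG3 the other way round. Of the genes tested 18% were separated the first way and 19.3% the second.

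**Figure D2:**
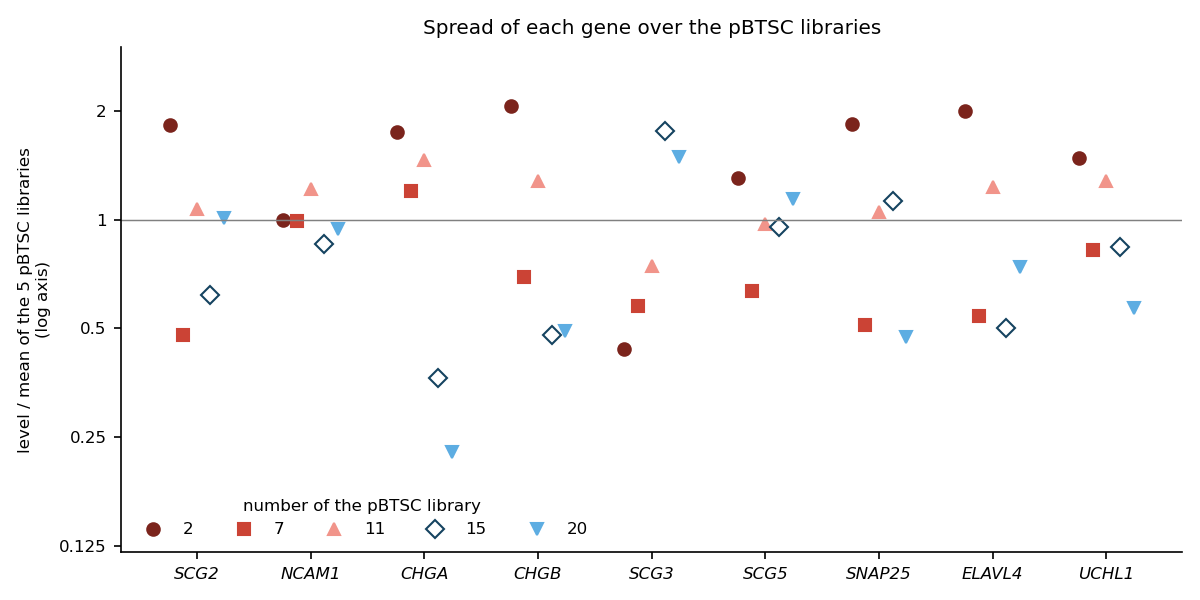
Level of each gene in each pBTSC library, divided by the mean of the 5 pBTSC libraries (vertical axis, logarithmic, 1 marks the mean), with a symbol per library and an open symbol for the shallow library 15. Libraries 15 and 20 sit lowest for CHGA and highest for SCG3, and library 2 is highest for 7 of the 9 genes.

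The split of the pBTSC libraries by number was compared after these values had been seen, in a limma fit of the 5 pBTSC libraries alone that called 1.77% of 14912 genes either way. CHGA was lower in libraries 15 and 20 by a log2 difference of -2.33 (SE 0.26, adjusted p = 0.0147, limma), and SCG3 was higher by 1.49 (SE 0.23, adjusted p = 0.0354, limma). These 2 of 9 genes were called, in opposite directions, and the other 7 were not, with CHGB at -1.31 (adjusted p = 0.227), UCHL1 at -0.75 (adjusted p = 0.265) and NCAM1 at -0.24 (adjusted p = 0.378). Without the shallow library 15 the differences of CHGA and SCG3 were -2.66 and 1.37, and neither was called (adjusted p = 0.0599 and 0.201, limma). With library 7 or library 20 left out, SCG3 alone lost its call (adjusted p = 0.0788 and 0.0721).

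Other values moved with this split. Libraries 15 and 20 came from wild-type piglets and the other 3 from the H2B-GFP line, so the number and the line cannot be told apart. Per the study, RNA integrity was lower in the other 3 than in library 20, with no value for library 15. The study also lists more cells for the other 3 than for libraries 15 and 20. These differences fall on the same split and cannot be told apart from the line. The hepatocyte sum was 28227 and 38649 in libraries 15 and 20 and 2310 to 4577 in the other 3, with ALB, albumin, at 19832 and 25087 against 287 to 376. The glial sum was 5201 and 6502 against 14808 to 20032, with SOX10 at 672 and 933 against 1751 to 2503, and 5 of 8 glial genes tested were called lower, among them GFAP, ERBB3, FOXD3 and SOX10. The sum of the stellate cell, pericyte and smooth muscle list was 643601 and 673449 against 228946 to 486707. Its members did not move together. DCN, COL1A1, DES and RGS5 had log2 differences of 2.07, 1.56, 0.78 and 0.30, while ACTA2, PDGFRB and NGFR had -1.05, -0.63 and -0.36. None of these genes was called. The part of these cells in the differences of CHGA and SCG3 was not tested. Of 66 other neural and neuroendocrine genes tested in this split, 3 were called lower in libraries 15 and 20, none was called higher, and 20 had an unadjusted p under 0.05 (limma). Of all 14912 genes tested there, 60 were called lower, 204 were called higher and 2759 had an unadjusted p under 0.05. The 3, named after their values were seen, were CHL1, a neural adhesion molecule, ISL1, a LIM-homeodomain factor of neurons and endocrine cells, and STMN3, a microtubule regulator. None of the 3 was called without library 15.

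Between the liver sorts, which the choice of genes did not use, no member was called. Between CD45-/EpCAM- and CD45-/EpCAM+ cells, where 2.8% of all genes were called either way, 0 of 9 were called and 0 had an unadjusted p under 0.05 (limma). Of all 15576 genes 3499 had such a p. Between CD45+ and CD45-/EpCAM+ cells 0 of 9 and 0% of all genes were called. Again no member had an unadjusted p under 0.05, as did 214 of all 15576 genes (limma). NCAM1 was nearest at a log2 difference of 2.25 (SE 1.08), which fell to 0.39 (SE 0.31) without the 3 shallow libraries. Between CD31+ and CD146+ cells together and CD45+ and CD45-/EpCAM+ cells together 0 of 9 and 0% of all genes were called. An unadjusted p under 0.05 was found for 2855 of all 15576 genes and for 1 member, UCHL1 (log2 difference -1.54, SE 0.70, adjusted p = 0.263, limma). The zeros of the shallow library 22 entered that mean, and without the 3 shallow libraries the difference of UCHL1 was -0.23 (SE 0.35). With CD146+ library 17 left out, so that library 22 stood alone for its sort, SCG3, SCG5 and UCHL1 were called lower (log2 differences -3.15, -2.23 and -3.03).

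NCAM1 in the liver turned on 1 shallow library. It was 53.1 and 53.3 in CD45-/EpCAM- libraries 5 and 14, and 128, 137, 0 and 287 in CD45-/EpCAM+ libraries 4, 9, 13 and 19. The zero belonged to library 13, in which 3 reads would have read as 77.1 normalized counts. With all libraries the log2 difference was 0.19 (SE 1.39, adjusted p = 0.958, limma). Without the 3 shallow libraries it was -1.67 (SE 0.39, adjusted p = 0.0302, limma) and NCAM1 was called lower in CD45-/EpCAM- cells, in a fit that called 5.72% of all genes either way and no other member. The 2 CD45-/EpCAM- libraries and CD45-/EpCAM+ libraries 4 and 9 carry numbers from 3 to 14, and within these 4 deep libraries the groups did not overlap. With a term for the number range added, also without the shallow libraries, the difference was -1.50 (adjusted p = 0.0309, limma), an alternative chosen after seeing the data. Both CD45-/EpCAM- libraries also had the highest natural killer sums in the liver, 973 and 1111, and the lowest sums of the stellate cell, pericyte and smooth muscle list, 25675 and 28420, against 35333 to 89973 in CD45-/EpCAM+ libraries. The part of these cells was not tested.

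In the remaining sorts NCAM1 was 265, 232, 113, 294 and 282 in CD45+ libraries 3, 8, 12, 18 and 23, 326 and 234 in CD31+ libraries 16 and 21, and 382 and 483 in CD146+ libraries 17 and 22. By group mean the order was therefore pBTSCs, CD146+, CD31+, CD45+, CD45-/EpCAM+ and CD45-/EpCAM-, and CD31+, CD45+ and CD45-/EpCAM+ cells overlapped with each other. The other 4 genes above the floor in the deep liver libraries were spread as follows. CHGB ranged from 6.55 to 15.8, SCG3 from 66.8 to 158, SCG5 from 17.6 to 51.3 and UCHL1 from 51.9 to 139 in these 13 libraries, and for each of them the ranges of CD45+ and CD45-/EpCAM+ cells overlapped.

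**Figure D3:**
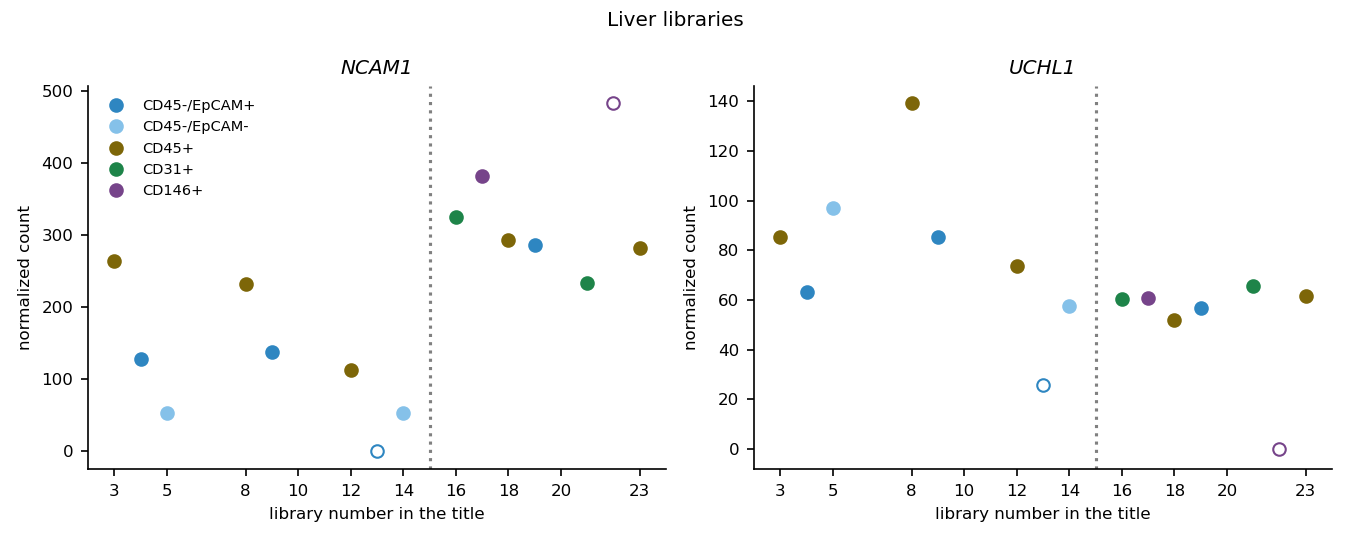
Normalized count (vertical axis) of NCAM1 and UCHL1 in the 15 liver libraries against the number in the library title (horizontal axis), coloured by sort, with open points for the shallow libraries 13 and 22 and a dotted line between the number ranges 3 to 14 and 16 to 23. NCAM1 is lowest among deep libraries in the CD45-/EpCAM- sort, and UCHL1 has a wider spread at numbers 3 to 14.

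The liver libraries fall into numbers 3 to 14 and 16 to 23, a split whose meaning the labels do not give and which holds all CD31+ and CD146+ libraries in the second range. Of 14910 genes 3.78% were called between the ranges with the sort in the model. Only 5 of the 9 genes were high enough in liver for this fit, and 0 of 5 were called or had an unadjusted p under 0.05 (limma). Such a p was found for 3807 of the 14910 genes. The deep libraries of the second range held NCAM1 at 301 ± 49.7 (SD, n = 6) and those of the first at 140.2 ± 81.7 (SD, n = 7), and UCHL1 at 59.5 ± 4.64 and 85.8 ± 27.2. Without the shallow libraries the log2 differences were 0.78 for NCAM1 (adjusted p = 0.0736, limma) and -0.61 for UCHL1 (adjusted p = 0.135, limma). Within each range the 5 genes showed no common movement: over their 10 pairs Pearson's r on log2 values ran from -0.53 to 0.64 in the 7 deep libraries numbered 3 to 14, and from -0.65 to 0.64 in the 6 numbered 16 to 23, with Spearman's rho from -0.61 to 0.57 and from -0.54 to 0.89. These points share sorts and normalization, and the values are a description.

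The other genes of the same pathways were taken from lists. Of 80 genes looked up 77 had a row and 67 were high enough to be tested. In pBTSCs against CD45-/EpCAM+ cells 42 of the 67 were called higher and 1 lower, with a median log2 difference of 3.02 beside 0.08 over all genes tested. Of all genes 14.8% were called higher and 10.3% lower. Against CD45-/EpCAM- cells 42 were called higher and 2 lower (median 2.51 beside 0.04; 20% and 16.6% of all genes). Against CD45+ cells 41 were called higher and 1 lower (11% and 9.54% of all genes), against CD31+ cells 34 and 0 (6.73% and 7.62%), and against CD146+ cells 42 and 0 (14.5% and 7.75%). These 5 contrasts share the pBTSC libraries. The CD45-/EpCAM+ ranges and differences below include the shallow library 13, where 3 reads make 77.1. A 0 at the lower end of such a range may therefore give no level. In 35 of the 67 the pBTSC and liver libraries did not overlap, with pBTSCs on top (11.9% of all genes). The lists were drawn up with an earlier account of these data known, so the counts are not independent evidence.

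**Figure D4:**
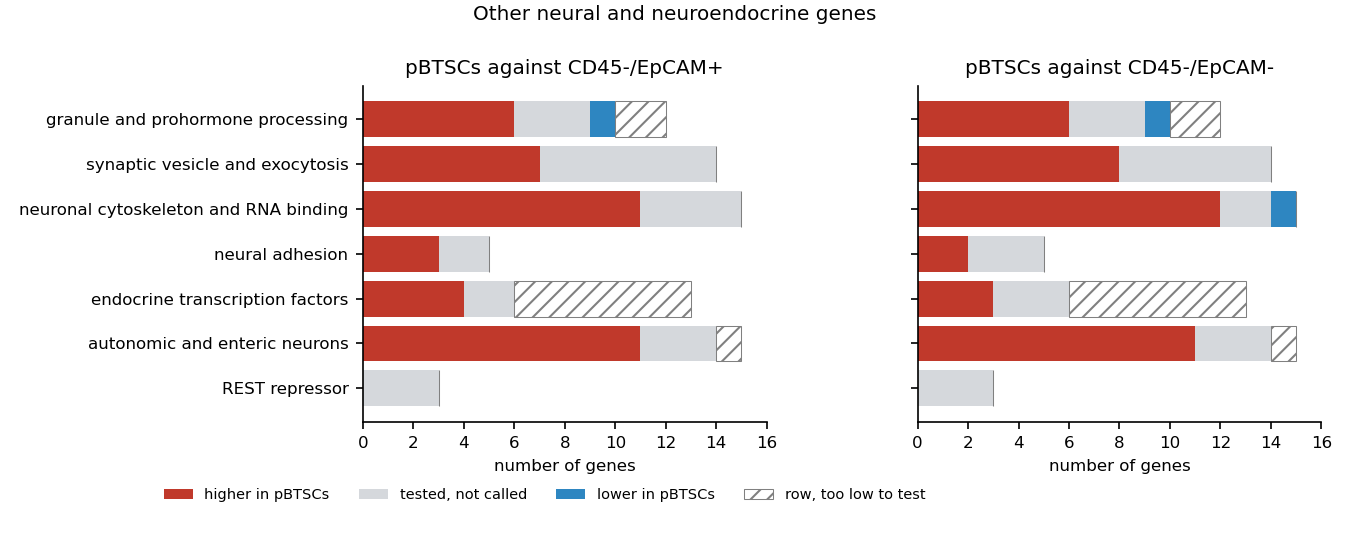
Number of genes of each list (horizontal axis) that were called higher in pBTSCs, called lower, tested and not called, or present but too low to test, in pBTSCs against CD45-/EpCAM+ cells (left) and against CD45-/EpCAM- cells (right). Neuronal cytoskeleton and autonomic neuron genes were mostly called higher, none of the 3 REST repressor genes was called, and 7 of 13 endocrine transcription factors were too low to test.

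Genes of granules and prohormone processing rose in part, with 6 of 10 tested called higher and 1 lower against either CD45- sort. PCSK2, the prohormone convertase that SCG5 serves, was 32.5 to 77.6 in pBTSCs and 0 to 6.77 in CD45-/EpCAM+ cells (log2 difference 4.09, SE 0.61, adjusted p = 4.92e-05, limma). PCSK1N, a granin-like inhibitor of the other convertase, was 432 to 693 against 77.1 to 177 (2.46, SE 0.23). CPE, the carboxypeptidase that trims cut prohormones, was 3752 to 5086 against 437 to 1785 (2.35, SE 0.36). PTPRN2, a phosphatase-like protein of the granule membrane, was 55.5 to 140 against 2.97 to 38.2 (3.28, SE 0.65). These 4 were also called higher against CD45-/EpCAM- cells, by 3.49 to 4.27. BEX1, a small neurotrophin-receptor adaptor, went the other way, at 231 to 338 in pBTSCs and 357 to 2646 in CD45-/EpCAM+ cells (-1.93, SE 0.60, adjusted p = 0.0162, limma) and 1153 to 6421 in CD45-/EpCAM- cells (-3.31). BEX1 also differed between the liver number ranges, at 738 to 6421 in libraries 3 to 14 and 207 to 368 in libraries 16 to 23, where it overlapped with pBTSCs.

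Synaptic vesicle and exocytosis genes, the partners of SNAP25, had 7 of 14 called higher against CD45-/EpCAM+ cells and 8 of 14 against CD45-/EpCAM- cells, with none lower. SYT1, the calcium sensor of release, was 95.4 to 529 in pBTSCs and 13.4 to 25.4 in CD45-/EpCAM+ cells (log2 difference 3.80, SE 0.50, adjusted p = 1.55e-05, limma). SYN2, a vesicle-tethering synapsin, was 12.6 to 84.97 against 0 to 0.941, and the complexins CPLX1 and CPLX2, which clamp the SNARE complex, were called higher by 3.46 and 4.12. UNC13A, which primes vesicles, was called higher against CD45-/EpCAM- cells by 2.44 (SE 0.95, adjusted p = 0.0404, limma).

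The neuronal cytoskeleton and RNA-binding list, to which ELAVL4 is related, had 11 of 15 called higher against CD45-/EpCAM+ cells. STMN2, a stathmin of growing axons, was 129 to 458 in pBTSCs and 0 to 10.6 in those cells (log2 difference 6.48, SE 0.62, adjusted p = 4.49e-07, limma). The intermediate filament genes NEFL and INA rose by 6.29 and 6.08 and the neuronal tubulin TUBB3 by 5.47. Against CD45-/EpCAM- cells 12 were called higher, and 1, the RNA-binding protein CELF4, lower (-3.26, SE 1.22, adjusted p = 0.0349, limma), at 0 to 27.1 in pBTSCs and 58.3 and 94.9 in the 2 liver libraries. In liver libraries 16 to 23 CELF4 was 0 to 17.7, within the range of pBTSCs.

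Of 5 neural adhesion genes tested, the relatives of NCAM1 in function, 3 were called higher against CD45-/EpCAM+ cells and 2 against CD45-/EpCAM- cells. CNTN1, a contactin of axons, was 103 to 199 in pBTSCs and 0 to 6.41 in CD45-/EpCAM+ cells (log2 difference 5.80, SE 0.69, adjusted p = 5.06e-06, limma). CHL1, close homolog of L1, was 764 to 4783 against 46.7 to 152 (4.40, SE 0.55), and NRCAM was 86.3 to 205 against 0 to 51.4 (3.08, SE 1.004). Those cells include the shallow library 13, where 3 reads make 77.1, so it gives no level of NRCAM. Over the deep liver libraries of all sorts the NRCAM median was 35.0, and the pBTSC median was 3.56 times that.

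Autonomic and enteric neuron genes had 11 of 14 called higher against either CD45- sort and none lower. GAL, which encodes the neuropeptide galanin, was 168 to 522 in pBTSCs and 0 to 2.53 in CD45-/EpCAM+ cells (log2 difference 7.01, SE 0.51, adjusted p = 3.07e-08, limma). The neuropeptide genes VIP and CARTPT were called higher by 7.82 and 6.64. NOS1, the neuronal nitric oxide synthase of inhibitory motor neurons, was 99.7 to 219 in pBTSCs against 1.42 and 4.42 in CD45-/EpCAM- cells. VIP was listed at 0 in every library of both CD45- sorts, and in pBTSCs it ran from 74.8 in library 20 to 1167 in library 2.

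Endocrine transcription factors were low. Of 13 listed 6 could be tested, and 4 of them were called higher against CD45-/EpCAM+ cells and 3 against CD45-/EpCAM- cells. Among these LMX1A was 2.75 to 41.2 in pBTSCs and listed at 0 in every CD45-/EpCAM+ library. The sum of 7 islet and gut hormone genes was 25.1 to 103 in pBTSCs and 0 to 107 in liver. Of these INS was above the floor in 2 of 5 pBTSC libraries, with 40.1 in library 2, and GCG, SST and GHRL in 4 of 5, with highest values of 40.1, 28.8 and 13.9. In liver none of the 4 passed the floor in any library. GCG was called higher in pBTSCs in all 5 contrasts with liver (log2 differences 3.88 to 4.37, limma). With all libraries SST and GHRL were called higher against CD45-/EpCAM+, CD45-/EpCAM- and CD45+ cells, and neither was called against CD31+ or CD146+ cells. Without the shallow libraries both were also called higher against CD31+ cells (2.94, adjusted p = 0.00697, and 3.07, adjusted p = 0.000966, limma). Against CD146+ cells, then library 17 alone, the differences of SST and GHRL were 3.66 and 2.26, beside 0.81 and 2.17 with library 22 included. CCK, cholecystokinin, went the other way, at 0 to 5.89 in pBTSCs and 0 to 94.5 in liver. It was called lower against CD45-/EpCAM- cells (-4.12, SE 1.31, adjusted p = 0.0150, limma) and CD45+ cells (-3.40, SE 0.99, adjusted p = 0.0133, limma), and without the shallow libraries also against CD45-/EpCAM+ cells (-3.20, adjusted p = 0.00835, limma). REST, the repressor that silences neuronal genes elsewhere, and its partners RCOR1 and SIN3A were not called in any of the 5 contrasts of pBTSCs with liver, and REST was 1511 to 1961 in pBTSCs and 1142 to 1822 in liver. Beside all of these lists, 5 of 8 glial genes were called higher in pBTSCs against CD45-/EpCAM+ cells and 7 of 8 against CD45-/EpCAM- cells.

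Among the 5 genes whose profile over the 17 deep libraries lay nearest to that of SCG2 were MUC5B, SLC9A3, VIP and KRT20, with a root mean square distance of 0.63 to 0.85 on the log2 scale after centring each gene. MUC5B, a gel-forming mucin, was 4355 to 18980 in pBTSCs and 33.5 to 150.5 in deep liver libraries, and KRT20, a keratin of gut-type epithelium, was 120.3 to 1494 against 0 to 5.41. SCG2 was below the floor in every deep liver library. Its distances therefore rest largely on the step from liver to pBTSCs, the contrast on which it was chosen. The cells that held SCG2 were not tested, and both epithelial and neuronal genes were among its 5 nearest. Those nearest to NCAM1 were CAMK2A, FGF2, MEOX2, DPYSL3 and RGMA, at 0.36 to 0.40. DPYSL3, a protein of axon growth cones, was 5359 to 9755 against 254 to 1723. Over all 20 libraries 2 of the 5 genes nearest to SCG2 and 1 of the 5 nearest to NCAM1 were the same.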

How the data were processed

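Poly(A) RNA was sequenced from 5 pBTSC and 15 sorted liver cell preparations. The authors deposited normalized counts per gene, a signal that is never negative. The submitters' processing notes name STAR, Salmon and DESeq2, while the versions, genome build and annotation are not given in the sources used here. What 1 read is worth in a library was read off its commonest small values. Only 56.0% to 81.6% of low values (up to 20 reads) lay within 0.05 of a whole read, so count tests were not run.

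Groups were taken from the labels. The deposited counts were put on a log2(value + 1) scale and 15576 genes, those reaching 10 in 2 or more libraries, were tested with limma 3.58.1 in R 4.3.3 (trend, Benjamini-Hochberg), all 6 groups in 1 fit. Fold changes are on that scale, which understates low genes. Calls needed an adjusted p-value below 0.05 together with a log2 fold change beyond 1 in size. Of 200 genes changed in simulated data 183 were called, with 8 false calls. The simulated noise was capped and drawn alike for shallow and deep libraries, and only genes of higher mean level were changed. These rates need not hold for low genes or shallow libraries. Tables used Python 3.11.15 with numpy 2.4.6, pandas 2.3.3 and scipy 1.17.1, and figures matplotlib 3.10.9.

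The 9 genes and all lists were chosen with earlier results of these data known. In each list the 4 called genes with the largest change and no overlap, and those called lower, are named for both CD45- sorts, and some genes that this picks are not reported here. The study's methods give 5 donors for pig cells, but the sources used here do not say which donor each liver library came from, so p-values measure the spread between libraries, which may in part be technical. Alternatives changed the pseudocount (0.1, 10), scaling, filter (none, 50), weights, libraries and covariates. Sequences were not used here.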

Additional observations from a re-analysis of the deposited data

Results flagged for a closer look

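In 27 pairs of a gene and a group of 4 or 5 libraries, 3 held a library far from the others by the gap between it and its neighbour over the whole range; chance marks about 1 in 20. CHGA in CD45+ cells stood out at 7.22 normalized counts in library 12 (gap ratio 0.895). SNAP25 stood out in the same library at 3.16 (0.881). Both levels were low, since 3 reads there make 2.16. CHGB in CD45-/EpCAM+ cells stood out at 0 in the shallow library 13 (0.899), where 3 reads would make 77.1, so that zero gives no level.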

How the results depend on the processing

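All 9 genes kept every pBTSC library above every liver library with libraries rescaled to the same total or upper quartile, without the 3 shallow libraries, and with each library left out (9 to 9). Within liver, the number of members called between CD45-/EpCAM- and CD45-/EpCAM+ cells went from 0 to 1 without the shallow libraries and also with a number range term added to that (chosen after seeing the data). The 1 gene was NCAM1, whose log2 difference turned from 0.19 to -1.67 and -1.50, as library 13 alone lists it at 0; with each library left out it ran from -1.67 (library 13) to 1.05. With each library left out the members called were 0 to 1 here, 0 to 0 between CD45+ and CD45-/EpCAM+ cells, 0 to 3 for CD31+ and CD146+ cells, 0 to 0 between number ranges and 0 to 2 in the pBTSC split, where 0 remained called without library 15. Other neural and neuroendocrine genes called with each library left out numbered 39 to 46 (CD45-/EpCAM+), 32 to 48 (CD45-/EpCAM-), 36 to 44 (CD45+), 22 to 37 (CD31+, lowest without library 21) and 26 to 45 (CD146+, lowest without library 22). A filter of 50 gave 22 against CD31+ cells and array weights gave 26 against CD146+ cells; the cause was not tested for the weights, while the filter tests fewer genes. Of the genes nearest to SCG2 and NCAM1, 2 and 1 of 5 were shared when all 20 libraries were used. The other 108 summary values from settings other than leaving a library out stayed within 1.5 times. No paired analysis was possible because the labels give no donor or shared replicate number. The title numbers run in 5 stretches, each opening with a pBTSC library, but whether a stretch is 1 donor is not stated, so none was used as a block. Depth limits libraries 13, 15 and 22, in which ELAVL4 and CHGB rest on 3 reads or fewer. Library 13 also held 1 read or none of every member but SCG3, which had about 3. Library 22 listed every member but NCAM1 at 0.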
